A study of Mus musculus with 28 samples.

Results

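Of the 45513 genes listed in the count tables, 9 that are mutated in amyotrophic lateral sclerosis (ALS) or in the related frontotemporal dementia (FTD) were followed: Sod1, Vcp, Sqstm1, Optn, Tbk1, Ubqln2, Matr3, Pfn1 and Chchd10. They were chosen by name, not by any measured value, though earlier results of these data were known. Tardbp, the gene of TDP-43 itself, was left out. Each symbol matched exactly 1 Ensembl gene identifier of the tables.

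Libraries were made from MN1 cells and from primary cortical neurons, 1 of ribosome footprints and 1 of poly(A)-selected total mRNA from each culture, 28 in all. MN1 is a clonal mouse line that arose by fusing spinal motor neurons with neuroblastoma cells. It was transiently transfected with plasmids for GFP, human TDP-43 (hTDP-43) or the ALS mutant hTDP-43 A315T, with 2 cultures per plasmid, and was exposed to cycloheximide, which stalls ribosomes, at 100 µg/ml for 3 min before it was lysed. Cortical neurons of C57BL/6J background were taken at embryonic day 16 and grown for 14 days with cytosine arabinoside, which kills dividing cells. They carried no transgene (WT, 2 cultures) or an hTDP-43 (3 cultures) or hTDP-43 A315T (3 cultures) transgene under the prion protein promoter. By the study's account the transgenic animals were hemizygous. Neither the number of embryos behind a culture nor the share of transfected MN1 cells was given in the labels. By the study's account the neurons were not given cycloheximide until lysis, and the lysis buffer contained it at 100 µg/ml. Cell type and cycloheximide before lysis therefore cannot be told apart in any comparison between MN1 cells and neurons.

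The genes encode parts of a few cellular systems. Vcp is an ATPase that pulls ubiquitinated proteins out of complexes and membranes, and Ubqln2 carries such proteins to the proteasome. Sqstm1 (p62) and Optn are receptors that tether ubiquitinated cargo to autophagosome membranes, and Tbk1 is the kinase that phosphorylates both. Sod1 is the copper and zinc superoxide dismutase of the cytosol, Chchd10 is a small protein of the mitochondrial intermembrane space, Pfn1 binds actin monomers and feeds filament growth, and Matr3 is an RNA-binding protein of the nuclear matrix.

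On the mouse genome build GRCm38, with coordinates as in the deposited tables, all 9 are protein-coding genes. Sod1 (ENSMUSG00000022982) lies at chr16:90220742-90226322 and Chchd10 (ENSMUSG00000049422) at chr10:75935573-75937725, both on the plus strand. Ubqln2 (ENSMUSG00000050148) at chrX:153498227-153501570 and Matr3 (ENSMUSG00000037236) at chr18:35562146-35593835 are also on the plus strand. On the minus strand are Vcp (ENSMUSG00000028452) at chr4:42979963-43000507, Optn (ENSMUSG00000026672) at chr2:5020642-5064051 and Tbk1 (ENSMUSG00000020115) at chr10:121546455-121586794. Sqstm1 (ENSMUSG00000015837) at chr11:50199366-50210827 and Pfn1 (ENSMUSG00000018293) at chr11:70651850-70654644 lie on the minus strand of the same chromosome.

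Part of the sequence of some of these genes is not particular to them. Of all 28-base windows of the coding sequence, 90.0% in Vcp and 54.3% in Sod1 occurred again elsewhere in the genome. The second copy of Vcp is the processed pseudogene Vcp-rs on chromosome X, and most of the windows that Sod1 shares lie in the pseudogene Gm8566 on chromosome 6. Reads that map to both copies had been discarded, so the levels of Vcp and Sod1 are uncertain. They are best read as comparisons of 1 gene between libraries of the same type. Over the whole transcript the shares were 84.6% in Vcp and 44.0% in Sod1, so the loss can differ between footprints and total mRNA. The shared portion of the coding sequence was 4.57% in Matr3, 2.78% in Pfn1, 0.423% in Ubqln2 and 0 in the other 4 genes. Counting took no account of strand, and 17.3% of the exon bases of Sqstm1 and 7.3% of those of Vcp overlap genes on the opposite strand, Mrnip and 1700022I11Rik. A further 8.6% of those of Matr3 overlap a gene on the same strand.

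The start codon is where a ribosome begins to translate, and its surroundings are shown because the footprint to mRNA ratio described below differed among these genes. The windows run from 10 bases before the start codon, on the strand of the gene in GRCm38 with GENCODE M21 transcripts, and capitals mark the start codon. They are ordered by that ratio in MN1 cells, from the highest to the lowest, with Matr3 not shown.
Ubqln2: cgcggccgccATGgctgagaacg
Chchd10: caccgcagtcATGcctcggggaa
Pfn1: cagcagcgccATGgccgggtgga
Sod1: ccggggaagcATGgcgatgaaag
Vcp: ggcgcgcgccATGgcctctggag
Sqstm1: gaccgcggttATGgcgtcgttca
Tbk1: acaagccgagATGcagagcacct
Optn: acctgttaccATGtcccatcaac
The start codons lie at chrX:153498454-153498456 (Ubqln2), chr10:75935964-75935966 (Chchd10), chr11:70654478-70654480 (Pfn1), chr16:90220858-90220860 (Sod1), chr4:43000176-43000178 (Vcp), chr11:50210755-50210757 (Sqstm1), chr10:121584280-121584282 (Tbk1) and chr2:5054703-5054705 (Optn). A purine at the third base before the start codon, a feature of the Kozak context, stood in all 8 and in 84.6% of 21511 coding genes. A G right after the start codon, the other conserved base, stood in 5 of the 8 (Ubqln2, Pfn1, Sod1, Vcp and Sqstm1) and in 49.6% of coding genes. Chchd10, Tbk1 and Optn have C, C and T there. Whether the start codon context bears on the ratio was not tested. TDP-43 binds RNA rich in TG (UG) repeats, and the sense strand of the principal transcript was searched for TGTGTG. It occurred in 8 of the 9 genes, all but Ubqln2, and in 67.4% of all coding genes' transcripts. The longest uninterrupted TG run was 8 bases in Optn and in Pfn1, both in the 3′ untranslated region, and a run at least as long was present in 23.7% of all coding genes.

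Reads assigned to genes ranged from 332370 to 1219222 in MN1 footprint libraries, from 1328528 to 2988339 in MN1 total mRNA, from 166064 to 2528820 in neuron footprints and from 600385 to 6969578 in neuron total mRNA. The fewest were in the hTDP-43 neuron culture of replicate 3. Lars2, which encodes a mitochondrial leucyl-tRNA synthetase, took 18.83% and 14.15% of the reads in total mRNA of WT and hTDP-43 neurons of replicate 3, and at most 7.49% in the other 6 neuron libraries. The labelled cell types were met by their markers: 7 neuronal markers summed to 3371 to 4189 CPM (reads of a gene scaled to a common library size) in neuron total mRNA and to 418 to 520 in MN1 cells, and 5 motor neuron markers to 4.34 to 11.1 and 49.0 to 70.6. The 4 markers of dividing cells summed to 366 to 575 CPM in MN1 total mRNA and 2.56 to 6.76 in neurons, while 6 astrocyte markers reached 237 to 601 in neurons, with all 6 detected, and at most 3.85 in MN1 cells. Microglial markers stayed at or below 3.78 in every library. Reads counted at mouse Tardbp in MN1 total mRNA were at 225 to 248 CPM with GFP, 349 to 418 with hTDP-43 and 383 to 427 with A315T. In neuron total mRNA they were at 58.5 to 113. The human plasmids and transgenes have no entry of their own in the tables. Whether their reads were counted at mouse Tardbp was not tested.

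Levels are given per gene length as RPKM, the CPM of a gene divided by the length of all its exons in kilobases, after TMM scaling over the 14 libraries of a library type. In MN1 total mRNA the genes fell into an abundant set and a scarce set. Sod1 was at 339 ± 33.2 RPKM (SD, n = 6), Chchd10 at 322 ± 58.4, Pfn1 at 277 ± 13.7 and Sqstm1 at 213 ± 40.0, whereas Ubqln2 was at 41.9 ± 4.75, Tbk1 at 29.4 ± 3.86, Vcp at 28.5 ± 2.11, Matr3 at 5.65 ± 2.55 and Optn at 2.76 ± 0.892. Among neighbours in this order, the ranges of the 4 most abundant overlapped, as did those of Tbk1 and Vcp, and the remaining neighbours were apart. MN1 footprints put Chchd10 (641 ± 203) and Sod1 (604 ± 40.7) on top with overlapping ranges, then Pfn1 (500 ± 34.6), Sqstm1 (255.97 ± 23.8), Ubqln2 (112 ± 10.3), Vcp (36.8 ± 6.15), Tbk1 (32.2 ± 3.47), Matr3 (11.1 ± 2.34) and Optn (2.90 ± 1.67). Only the ranges of Vcp and Tbk1 also overlapped there.

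In neurons the spread between genes was narrower. Total mRNA levels were 189 ± 57.3 RPKM for Sod1 (SD, n = 8), 122 ± 26.7 for Sqstm1, 85.8 ± 4.96 for Ubqln2, 81.4 ± 26.2 for Chchd10, 67.3 ± 13.3 for Pfn1, 24.6 ± 3.36 for Vcp, 12.3 ± 3.12 for Matr3, 8.34 ± 1.33 for Tbk1 and 6.83 ± 1.81 for Optn. Ranges were apart only between Pfn1 and Vcp and between Vcp and Matr3. Footprint levels were 294 ± 27.3 for Sod1, 244 ± 33.1 for Ubqln2, 204 ± 68.2 for Chchd10, 197 ± 18.1 for Sqstm1, 122 ± 10.3 for Pfn1, 37.6 ± 7.04 for Vcp, 29.8 ± 4.17 for Matr3, 14.1 ± 2.82 for Tbk1 and 8.42 ± 2.55 for Optn. Sqstm1 and Pfn1, Pfn1 and Vcp, and Matr3 and Tbk1 were the neighbours with separate ranges. The order depends on the length used. With the principal transcript in place of all exons, Pfn1 led MN1 total mRNA at 775 ± 38.2 RPKM and Sqstm1 led neuron total mRNA at 200.4 ± 44.0, and with the coding sequence Pfn1 led footprints of both cell types (2844 ± 197 in MN1 cells, 693 ± 58.6 in neurons). Optn had the fewest reads, 2 to 13 per MN1 footprint library and 3 to 64 per neuron footprint library, so its values are the least precise.

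**Figure D1:**
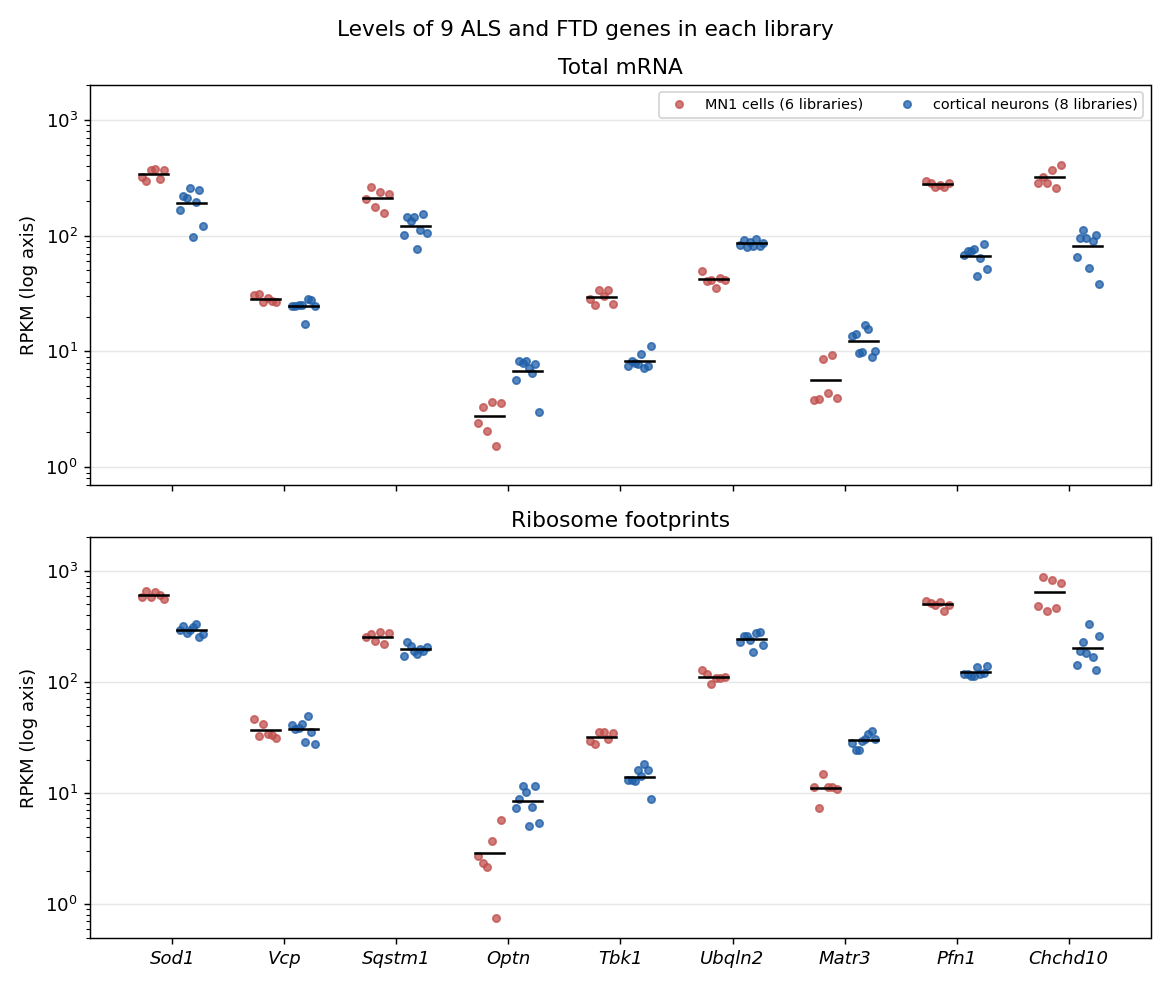
RPKM (log axis) of the 9 genes in each total mRNA library (top) and footprint library (bottom), with 1 point per library and a bar at the mean of the 6 MN1 (red) or 8 neuron (blue) libraries. Optn is the lowest gene on average in all 4 sets, and Pfn1 in neurons lies below every MN1 library.

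The next comparison asked how the 9 genes differ between both cell types. In total mRNA, 3 genes were higher in neurons (Ubqln2, Matr3 and Optn) and 5 were lower (Pfn1, Chchd10, Tbk1, Sod1 and Sqstm1), with Vcp short of the threshold (edgeR quasi-likelihood test, Benjamini-Hochberg adjusted p of 0.05 over all genes). The same 3 were higher and the same 5 lower in footprints. Most genes differ between these cell types: 81.0% of 12801 genes tested were called in total mRNA (42.6% higher, 38.4% lower) and 82.6% of 10698 in footprints (42.7% higher, 39.9% lower), so a call for 8 of 9 is close to the background. The members' median log2 fold change was -0.82 in total mRNA and -0.39 in footprints, beside 0.09 and 0.05 over all genes. In these bulk samples fewer cells of a type and less RNA per cell cannot be told apart.

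Among the quality control genes, Ubqln2 rose. Its total mRNA was at 35.2, 41.6 and 49.9 RPKM (lowest, median, highest) in MN1 cells and at 80.5, 85.0 and 92.9 in neurons, and its footprints at 96.9, 110 and 127 against 187, 248 and 284. Neither pair of ranges overlapped, and the log2 fold change was 1.03 ± 0.11 (SE, adjusted p = 3.61e-07) in total mRNA and 1.10 ± 0.11 (adjusted p = 6.38e-09) in footprints. Vcp was at 26.5, 27.95 and 31.5 RPKM against 17.1, 24.9 and 28.2 in total mRNA, short of the threshold (-0.24 ± 0.11, adjusted p = 0.057). Blocking by replicate number brought this value past the threshold (-0.24 ± 0.10, adjusted p = 0.049, in a fit that called 82.9% of all genes). Vcp footprints overlapped between the cell types (0.07 ± 0.13, adjusted p = 0.64), and passed the threshold without MN1 replicate 1 (0.37, adjusted p = 0.044) or neuron replicate 3 (0.35, adjusted p = 0.023).

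The autophagy receptors moved apart. Optn, scarce in MN1 cells, rose from 1.51, 2.86 and 3.69 RPKM to 3.00, 7.47 and 8.33 in total mRNA (1.35 ± 0.24, adjusted p = 0.00011) and from 0.753, 2.54 and 5.70 to 5.04, 8.14 and 11.6 in footprints (1.62 ± 0.30, adjusted p = 3.85e-05). Its lowest neuron libraries, all of replicate 3, reached into the MN1 range. Sqstm1 fell from 158, 219 and 264 RPKM to 77.1, 123 and 153 in total mRNA (-0.82 ± 0.17, adjusted p = 0.00057), with no overlap. Its footprints fell less, from 221, 264 and 280 to 173, 195 and 227, with overlapping ranges (-0.39 ± 0.11, adjusted p = 0.0020). That call was lost without MN1 replicate 2 (-0.25, adjusted p = 0.18), without neuron replicate 3 (-0.23, adjusted p = 0.11) and in the control groups alone (-0.41, adjusted p = 0.12).

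Tbk1, the kinase that acts on both receptors, was lower in neurons. Total mRNA was at 24.96, 29.2 and 33.9 RPKM in MN1 cells and 7.20, 7.88 and 11.1 in neurons (-1.84 ± 0.13, adjusted p = 6.42e-09). Footprints were at 27.4, 32.6 and 35.6 against 8.90, 13.7 and 18.1 (-1.10 ± 0.13, adjusted p = 5.08e-08). The ranges were apart in both library types.

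Of the remaining genes, Pfn1 and Chchd10 fell the most. Pfn1 total mRNA went from 263, 279 and 298 RPKM to 44.9, 70.8 and 84.8 (-2.06 ± 0.14, adjusted p = 4.82e-09) and its footprints from 437, 506 and 533 to 113, 118 and 140 (-2.04 ± 0.10, adjusted p = 5.50e-14). Chchd10 went from 257, 305 and 410 to 38.4, 92.7 and 113 in total mRNA (-1.97 ± 0.21, adjusted p = 4.93e-07) and from 438, 625 and 877 to 127, 185 and 334 in footprints (-1.65 ± 0.20, adjusted p = 1.10e-07). For both genes every neuron library lay below every MN1 library. Sod1 fell from 298, 344 and 373 to 96.4, 204 and 258 in total mRNA (-0.84 ± 0.20, adjusted p = 0.0011) and from 555, 595 and 659 to 252, 293 and 332 in footprints (-1.02 ± 0.10, adjusted p = 8.29e-09), again without overlap. Sod1, Pfn1 and Chchd10 had their lowest total mRNA values in the WT and hTDP-43 neurons of replicate 3, where Lars2 took many reads, and without those libraries the same 8 genes were called.

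Matr3 rose in neurons. Total mRNA was at 3.84, 4.15 and 9.25 RPKM in MN1 cells, where 2 cultures stood far above the other 4, and at 8.90, 11.8 and 16.9 in neurons, so that the ranges met (1.19 ± 0.23, adjusted p = 0.00026). Footprints were at 7.34, 11.3 and 14.7 against 24.2, 30.2 and 36.3, with no overlap (1.42 ± 0.12, adjusted p = 3.33e-10). Over the 9 genes the ranges were apart for 6 in each library type, beside 62.8% of all genes in total mRNA and 60.1% in footprints. With GFP and WT cultures alone, 2 against 2, the total mRNA calls of Sod1 (-0.96, adjusted p = 0.12), Sqstm1 (-0.80, adjusted p = 0.16) and Matr3 (1.14, adjusted p = 0.065) were lost, at effect sizes close to those of all cultures.

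**Figure D2:**
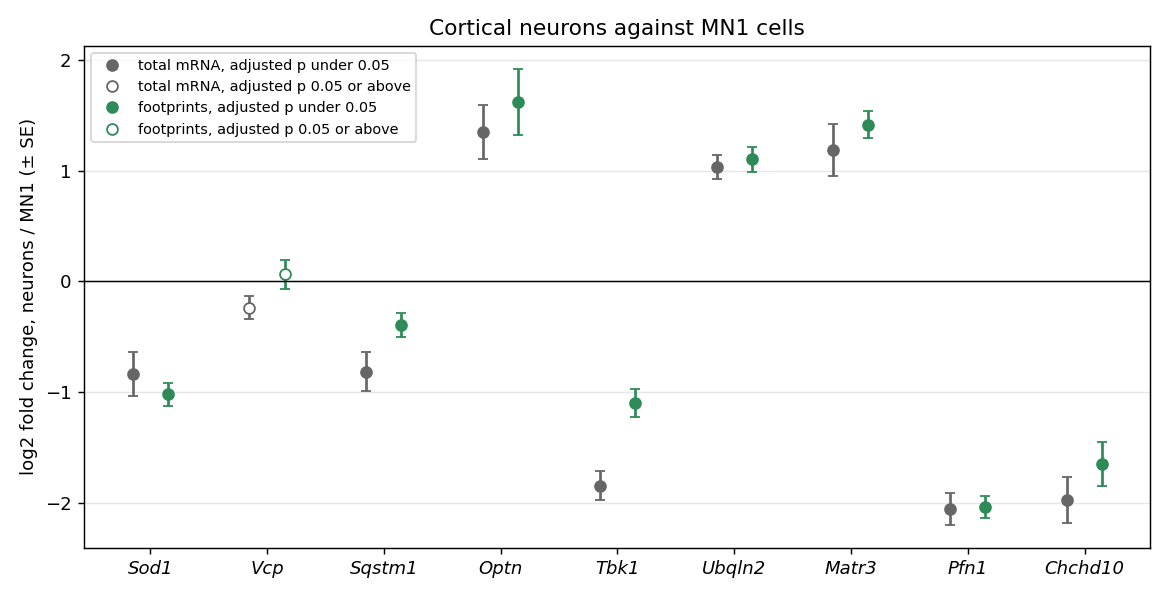
Log2 fold change of neurons against MN1 cells (± SE) for the 9 genes in total mRNA (grey) and footprints (green), with filled points for an adjusted p under 0.05. Ubqln2, Matr3 and Optn lie above 0 and Sod1, Sqstm1, Tbk1, Pfn1 and Chchd10 below it in both library types, and the Tbk1 points are -1.84 and -1.10.

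The ratio of footprints to total mRNA compares a gene's share of footprint reads with its share of mRNA reads. It holds no length term, and footprints fall mainly on coding sequence. Between genes it therefore also depends on the coding part of the transcript. In the principal transcript that part was 1917 of 3344 bases in Ubqln2 and 2190 of 3024 in Tbk1. It was 2541 of 6262 in Matr3 and 417 of 1488 in Chchd10. Reads were counted over all exons of the deposited gene, which held 3344 bases in Ubqln2 and 3031 in Tbk1. For Matr3 and Chchd10 these exons held 9869 and 939 bases, so their principal transcripts do not give the coding part of what was counted. The order of the 9 genes is thus not an order of ribosome density. In MN1 cells 7 of the 9 genes had more footprints than their mRNA share, where 27.2% of all genes did, and in neurons 8 of 9, where 26.6% did. None was called lower, as 30.2% and 27.3% of all genes were. The members' median log2 ratio was 0.90 in MN1 cells and 0.93 in neurons, beside -0.05 and 0.00 over all genes. Only total mRNA was selected by its poly(A) tail, so the ratio holds that selection as well, and both cannot be told apart.

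Ubqln2 had the highest CPM ratio in both cell types. Its CPM ratio of footprints to total mRNA was 2.32, 2.62 and 3.08 (lowest, median, highest culture) in MN1 cells and 2.32, 2.77 and 3.47 in neurons. The fitted log2 ratios were 1.49 ± 0.09 (adjusted p = 2.41e-08) and 1.57 ± 0.11 (adjusted p = 7.25e-09). Matr3 and Chchd10 followed, with 1.09 ± 0.21 and 1.06 ± 0.21 in MN1 cells and 1.33 ± 0.15 and 1.399 ± 0.22 in neurons. The cultures spread widely here: Chchd10 ran from 1.25 to 6.74 in neurons, with its highest ratios in the WT and hTDP-43 cultures of replicate 3, and Matr3 from 1.22 to 2.95 in MN1 cells.

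Pfn1 and Sod1 had ratios of 0.92 ± 0.08 and 0.90 ± 0.09 in MN1 cells and of 0.95 ± 0.13 and 0.73 ± 0.18 in neurons on the log2 scale. The Sod1 call in neurons was lost without replicate 1 (0.59, adjusted p = 0.064). Vcp had 0.44 ± 0.10 and 0.74 ± 0.13 and Sqstm1 0.34 ± 0.13 and 0.77 ± 0.14. In neurons the highest CPM ratios of Sod1, Pfn1 and Sqstm1 were also those of the WT and hTDP-43 cultures of replicate 3. They were 3.25 and 2.23 for Sod1, 3.03 and 2.72 for Pfn1 and 2.30 and 1.95 for Sqstm1. Over the alternative fits the neuron log2 ratio ran from 0.46 to 1.08 for Sod1, 0.66 to 1.15 for Pfn1 and 0.55 to 0.95 for Sqstm1. For Sod1 and Vcp the ratio also holds the loss of reads shared with pseudogenes. Optn was the only gene called in neither cell type, with 0.04 (adjusted p = 0.93) in MN1 cells and 0.33 ± 0.20 (adjusted p = 0.18) in neurons, and its cultures ranged from 0.498 to 1.60 and from 0.707 to 1.798 in CPM ratio.

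**Figure D3:**
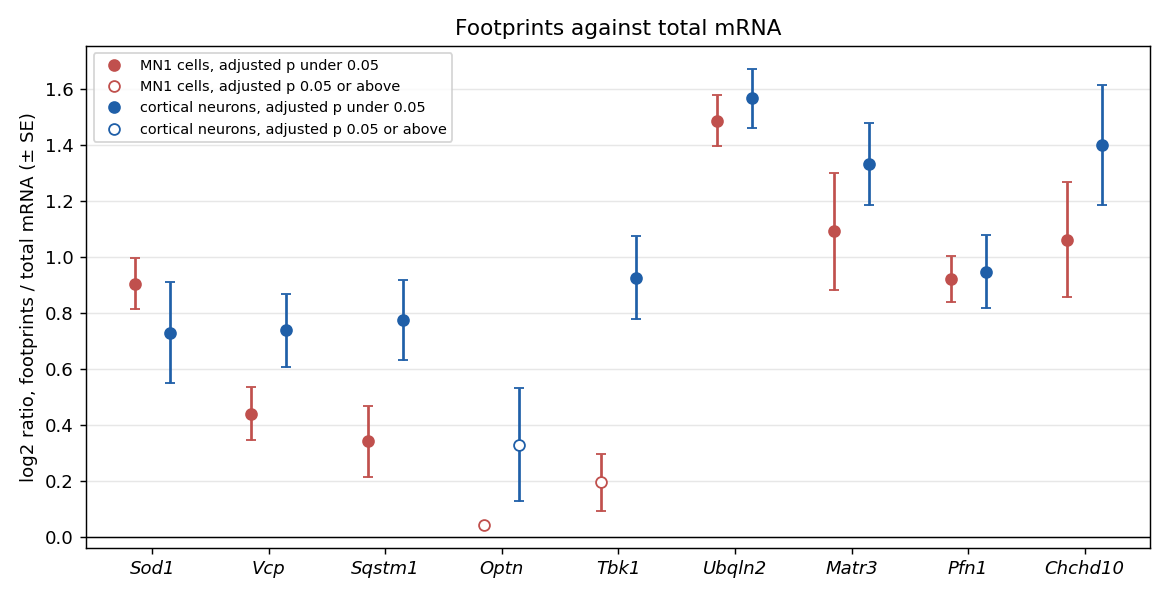
Log2 ratio of footprints to total mRNA (± SE) for the 9 genes in MN1 cells (red) and cortical neurons (blue), with filled points for an adjusted p under 0.05 and no error bar where the SE could not be given. The Ubqln2 points, at 1.49 and 1.57, are the highest, and the widest gap between the cell types is that of Tbk1, 0.19 against 0.93.

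The ratio itself was then compared between the cell types, as an interaction in 1 model over all 28 libraries. The footprint and mRNA libraries of a culture were not paired in it. Tbk1 was the only one of the 9 genes called, where 8.07% of 12358 genes were. Its ratio was 0.908, 1.08 and 1.34 in MN1 cultures and 0.799, 1.68 and 2.51 in neuron cultures. All neuron cultures but the shallow hTDP-43 replicate 3, which had 4 Tbk1 footprints, lay above all MN1 cultures. The log2 difference was 0.85 ± 0.18 (adjusted p = 0.0050), so that Tbk1 footprints were less reduced in neurons than Tbk1 mRNA. The median gene stood at 0.20 on this scale, which leaves Tbk1 0.65 above it.

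The other 8 genes ranged from -0.07 (Sod1, adjusted p = 0.97) to 0.54 ± 0.21 (Sqstm1, adjusted p = 0.11). Sqstm1 passed with the culture as a block, which pairs its libraries (0.55 ± 0.17, adjusted p = 0.036, in a fit that called 10.7% of all genes). With DESeq2 size factors in place of TMM the median gene moved to -0.02, and the share of calls that were higher in neurons from 73.6% to 31.0%, while Tbk1 kept a difference of 0.62 ± 0.18 (adjusted p = 0.042). The Tbk1 call was lost without MN1 replicate 1 (0.66, adjusted p = 0.22), without MN1 replicate 2 (0.94, adjusted p = 0.092), without neuron replicate 1 (0.64, adjusted p = 0.10) and in the control groups alone (0.60, adjusted p = 0.98), and it stood in 7 of 11 alternatives.

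The study's own comparisons asked what hTDP-43 and hTDP-43 A315T change within each cell type. None of the 9 genes passed the adjusted threshold in any of the 12 contrasts between genotypes. Of 106 tests (Optn had too few reads in 2 MN1 footprint contrasts), 4 had an unadjusted p under 0.05 and 0 were called, also by DESeq2. With the replicate number as a block, 7 had an unadjusted p under 0.05 and 1 was called, Matr3 in MN1 total mRNA, while the block took the number of all genes called from 0 or 1 per contrast to 0 to 283. Without the block these contrasts called almost nothing over all genes either. The percentage called was 0.0115 for A315T against GFP, 0 for hTDP-43 against GFP and 0 for A315T against hTDP-43 in MN1 footprints. For MN1 total mRNA the same contrasts gave 0.00965, 0.0100 and 0, and all 6 neuron contrasts gave 0. Unadjusted p-values under 0.05 went to 44 to 548 genes per contrast, and DESeq2 called 0 to 11. Log2 fold changes of the 9 genes ran from -0.89 to 0.36, and 103 of the 106 lay within 0.5 of 0. Contrasts within a cell type share groups, so their values are not independent.

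**Figure D4:**
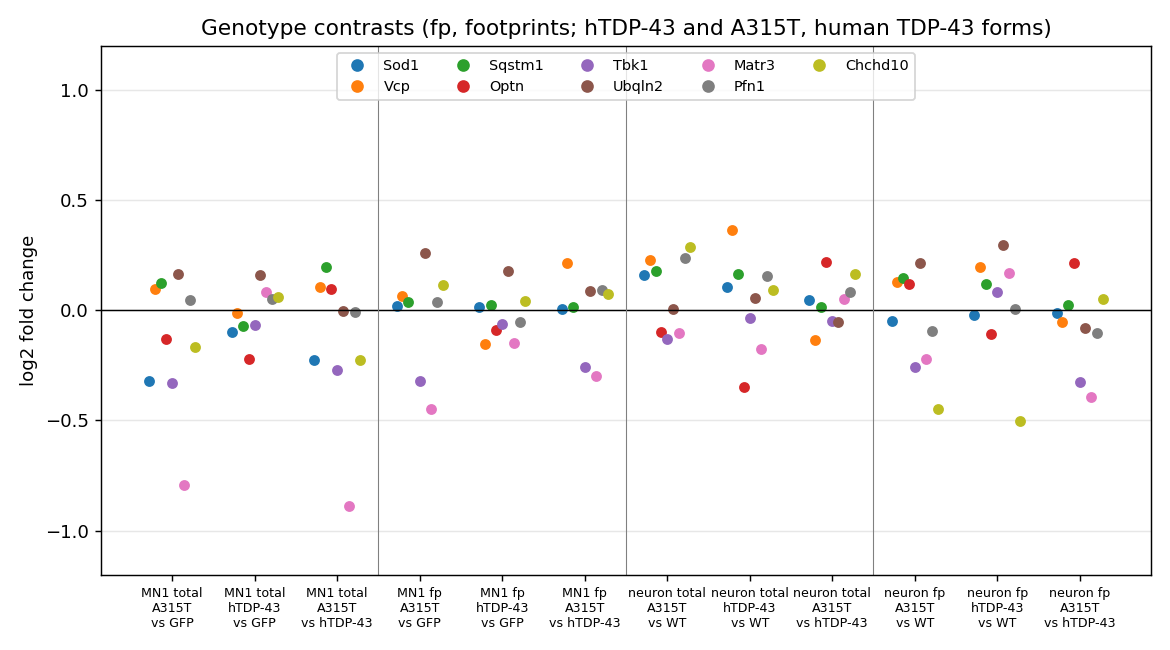
Log2 fold change of each gene (colour) in the 12 genotype contrasts, by cell type and library type, with GFP or WT as the control. The lowest points are Matr3 in MN1 total mRNA, at -0.79 against GFP and -0.89 against hTDP-43, and no point passed an adjusted p of 0.05.

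Matr3 accounted for 3 of the 4 unadjusted p-values under 0.05. In MN1 total mRNA it was, in the order GFP, hTDP-43, A315T, at 84.7, 91.3 and 37.9 CPM in replicate 1 and at 43.03, 39.0 and 38.5 in replicate 2. The A315T value was low in both replicates, whereas the others were high in replicate 1 only. Against GFP the log2 fold change was -0.79 ± 0.31 (adjusted p = 0.85), and against hTDP-43 it was -0.89 ± 0.33 (adjusted p near 1). Blocked by replicate number, the value against GFP passed the threshold (-0.79 ± 0.19, adjusted p = 0.020), in a fit that called 2.73% of all genes, and the value against hTDP-43 did not (-0.87 ± 0.22, adjusted p = 0.072). The size rests on single cultures. It was -0.20 without GFP replicate 1 and -1.25 without GFP replicate 2 (adjusted p = 2.75e-05, in a fit that called 2.43% of all genes). Against hTDP-43 it was -0.12 without that group's replicate 1 and -1.36 without its replicate 2 (adjusted p = 1.64e-06, in a fit that called 3.18%). These fits hold 1 culture in 1 arm, which is assumed to vary like the 2 A315T cultures, here at 37.9 and 38.5 CPM, so their p-values hold no measured spread of GFP or hTDP-43 cultures.

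Matr3 footprints in the same cultures were at 145, 112 and 112 CPM in replicate 1 and at 111, 107 and 72.5 in replicate 2, in the same order, and the log2 fold change of A315T against GFP was -0.45 ± 0.22 (adjusted p near 1). It lay between -0.77 and -0.25 when single cultures were left out, and at -0.47 ± 0.15 with the block (adjusted p = 0.25). In neurons its total mRNA was at 96.7 and 167 CPM for WT cultures, at 155, 87.9 and 99.1 for hTDP-43 and at 133, 140 and 95.03 for A315T, and the groups overlapped. Its neuron footprints were at 292 and 303 CPM for WT cultures, at 336, 358 and 304 for hTDP-43 and at 280, 243 and 239 for A315T. The 3 A315T values there were the lowest of all 8 (-0.39 ± 0.14 against hTDP-43 and -0.22 ± 0.15 against WT, both with an adjusted p near 1). Groups did not overlap for 9.01% of all genes in the former contrast and 18.8% in the latter.

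**Figure D5:**
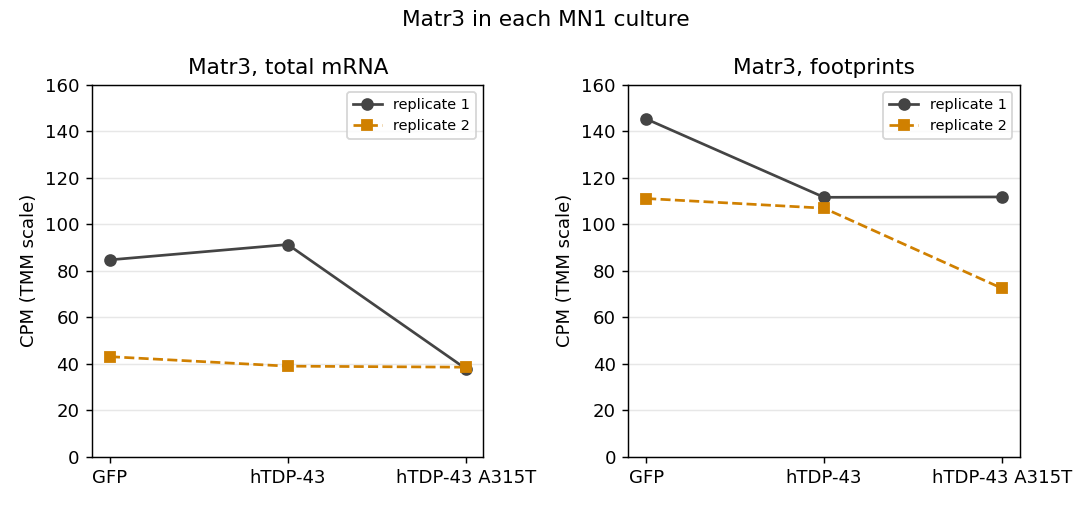
Matr3 CPM in each MN1 culture by plasmid, in total mRNA (left) and footprints (right), with a line for each replicate number. Total mRNA of replicate 1 drops from 84.7 and 91.3 to 37.9 with A315T, whereas the 3 cultures of replicate 2 lie between 38.5 and 43.03.

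Sod1 gave the remaining unadjusted p under 0.05. In MN1 total mRNA the GFP cultures were at 236 and 241 CPM, the hTDP-43 cultures at 200.1 and 238 and the A315T cultures at 208 and 193, so that A315T lay below GFP in both replicates (-0.32 ± 0.12, adjusted p = 0.85). With the replicate block this was -0.32 ± 0.093, just short of the threshold (adjusted p = 0.055, in the fit that called 2.73% of all genes). Values of A315T and GFP did not overlap for 37.2% of all genes in MN1 total mRNA. In neuron total mRNA the WT cultures stood at 167 and 62.3, on either side of the A315T cultures at 108, 141 and 137 (0.16 ± 0.39, adjusted p near 1). The sign there depends on which WT culture is used, with 1.06 without replicate 2 (adjusted p = 0.027, in a fit that called 12.5% of all genes) and -0.38 without replicate 3, the library with the high share of Lars2. The former sets that single WT library against 3 A315T libraries and assumes that it varies like them.

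The other 7 genes gave no unadjusted p under 0.05 without the block, and Tbk1 and Ubqln2 gave 1 each with it. Tbk1 total mRNA in MN1 cells was at 102 and 91.5 CPM with GFP and at 85.2 and 75.6 with A315T, in replicates 1 and 2 (-0.34 ± 0.13 blocked, adjusted p = 0.14). Ubqln2 footprints there were at 324 and 363 CPM with GFP and at 426 and 398 with A315T (0.27 ± 0.10 blocked, adjusted p = 0.44, in a fit that called 0.624% of all genes). Values of A315T and GFP did not overlap for 37.2% of all genes in MN1 total mRNA and 30.1% in MN1 footprints. A315T lay on the same side of GFP in both replicates for both genes, and neither gene passed the adjusted threshold. Chchd10 had the largest changes among them, in neuron footprints, where WT cultures had 170 and 314 CPM, hTDP-43 cultures 158, 119 and 243 and A315T cultures 133, 177 and 216 (-0.50 ± 0.27 for hTDP-43 and -0.45 ± 0.27 for A315T against WT, adjusted p = 0.91 and near 1). The groups overlapped, and the size rests on single cultures. Without WT replicate 3 the values were -0.0355 and 0.0363, and without WT replicate 2 they were -0.93 and -0.86.

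In MN1 cells some genes differed between the replicate numbers over all 3 plasmids. The values of replicate 1 and replicate 2 did not overlap for 4 of the 9 genes in total mRNA, beside 22.5% of all genes, and for 3 in footprints, beside 19.0%. Chchd10 footprints were at 411 to 450 CPM in replicate 1 and 725 to 824 in replicate 2, and its total mRNA at 242 to 270 and 303 to 385. Sqstm1 total mRNA was likewise at 529 to 700 in replicate 1 and 771 to 888 in replicate 2, and its footprints at 740 to 859 and 910 to 938. Optn total mRNA was at 5.68 to 9.10 and 12.4 to 13.9. Ubqln2 total mRNA went the other way, at 140 to 167 and 118 to 138, as did Matr3 footprints, at 112 to 145 and 72.5 to 111. In the contrasts between genotypes, all genes but Matr3 and Chchd10 stayed between -0.35 and 0.36.

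The footprint to total mRNA ratio was also compared between genotypes. In 54 tests over 6 contrasts none of the 9 genes had an unadjusted p under 0.05 and 0 were called, as for all genes (0% in each contrast, by edgeR and by DESeq2, with 72 to 231 genes at an unadjusted p under 0.05). Values ran from -0.74 (Chchd10, A315T against WT neurons) to 0.58 (Matr3, A315T against hTDP-43 in MN1 cells). The former was -1.63 without neuron replicate 2 and 0.11 without neuron replicate 3, so its sign rests on single cultures. The A315T effect differed between neurons and MN1 cells for none of the 9 in 18 tests (-0.51 to 0.63, 0% of all genes called, 0 at an unadjusted p under 0.05 among the 9).

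Astrocyte markers, which could shift with the culture, summed to 283 to 410 CPM in total mRNA of WT neurons, 286 to 601 for hTDP-43 and 237 to 431 for A315T, with all 6 markers detected in neurons. The ranges overlapped, and their part in the neuron values was not tested.

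Close relatives of the 9 genes followed them in some cases and not in others. Pfn2, the profilin of neurons, was at 10.4 ± 1.497 RPKM in MN1 total mRNA and 126 ± 21.5 in neurons (3.59 ± 0.17, adjusted p = 5.67e-11). Pfn1 was at 277 and 67.3, so that the order of the 2 profilins was reversed in total mRNA. In footprints Pfn2 was at 7.22 in MN1 cells and 111 in neurons, where Pfn1 was at 122, so the order was not reversed there. Per principal transcript Pfn1 was at 188 ± 37.2 in neuron total mRNA, and Pfn2 was not recomputed. Sod2, the mitochondrial superoxide dismutase, was at 43.9 ± 1.99 and 66.7 ± 9.46 (0.60 ± 0.12, adjusted p = 0.00029), opposite to Sod1, and the secreted Sod3 was at or near 0 in both. Sod2 footprints were at -0.03 ± 0.10 (adjusted p = 0.78) in the same comparison, and the footprint to mRNA ratio was lower in neurons (-0.52 ± 0.16, adjusted p = 0.039). Chchd2, the partner of Chchd10, fell with it (109 ± 12.7 to 44.0 ± 13.5 RPKM, -1.31 ± 0.21, adjusted p = 3.31e-05). Of the other ubiquilins, Ubqln1 fell slightly in total mRNA (-0.23 ± 0.10, adjusted p = 0.041) and Ubqln4 was at -0.19 ± 0.10 (adjusted p = 0.10).

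Lists of genes around the 9 were counted in neurons against MN1 cells, in total mRNA unless stated. Beside every count stand the 42.6% of all genes that were higher and the 38.4% that were lower in total mRNA, and 42.7% and 39.9% in footprints. Of 20 autophagy genes 14 were higher and 2 lower in total mRNA, and the same numbers in footprints. Map1lc3a, which coats autophagosome membranes, was at 9.46 RPKM in MN1 cells and 366 in neurons, and its relative Gabarapl1 at 33.9 and 315.2. The 2 that fell were Atg5, of the conjugation machinery (13.1 to 8.27), and Nfe2l2, a transcription factor of antioxidant genes that is stabilised by p62 (4.76 to 0.358). The list's median log2 fold change was 0.49, beside 0.09 over all genes. The medians of the other lists were -0.43 for Vcp cofactors, -0.97 for Tbk1 adaptors, -0.41 for antioxidant enzymes, -0.95 for cristae proteins, 0.53 for actin regulators, -0.56 for paraspeckle proteins and 0.66 for other ALS and FTD genes. Of 18 Vcp cofactors 2 were higher (Ubxn7, 0.77, and Vcpip1, 0.59) and 10 lower, with Derl1 (-1.51) and Derl2 (-1.25), channel proteins of the endoplasmic reticulum, the furthest down. In footprints 6 were higher and 9 lower. Of 8 adaptors and targets of Tbk1, 1 was higher (Tbkbp1, 0.66) and 4 lower, among them Mavs (10.2 to 0.945 RPKM) and Tmem173 (5.14 to 0.0318), adaptors of innate immune signalling. In footprints 0 were higher and 3 lower of 6 tested.

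Of 11 antioxidant enzymes tested 3 were higher and 5 lower, with 3 and 6 in footprints. Prdx5 (1.56) and Ccs (1.10), the copper chaperone of Sod1, rose the most, and Txnrd1 (-1.91) and Prdx1 (-1.69) fell the most. Of 13 proteins of the CHCHD family and the mitochondrial cristae 2 were higher, Chchd6 (1.12) and Opa1 (0.74), and 10 lower, with Apool (2.98 to 0.445 RPKM) and Chchd3 (37.4 to 10.6 RPKM) falling the most, and 2 and 8 in footprints. Of 14 profilins and actin regulators 8 were higher, led by Pfn2 and Evl (2.77), and 2 lower, Vasp (-2.84) and Actg1 (-0.57), with 5 and 4 of 12 in footprints. Of 11 paraspeckle and nuclear matrix proteins, the company of Matr3, 1 was higher and 8 lower in both library types. The higher one was the neuronal splicing regulator Ptbp2 (1.75 ± 0.15), and its relative Ptbp1 (-4.47 ± 0.16) and Nono (-1.58 ± 0.13) fell the most. Matr3 rose while 8 of these 11 fell. Of 30 other ALS and FTD genes 16 were higher and 13 lower, and 15 and 12 in footprints. Stmn2, a regulator of microtubules in axons, was at 0.628 RPKM in MN1 cells and 160 in neurons and Erbb4, a neuregulin receptor, at 0.0530 and 8.86, and the intermediate filament Prph (413 to 3.51) and the cyclin Ccnf (35.9 to 1.85) went down.

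In footprints against total mRNA the same lists divided as follows in MN1 cells and in neurons, where 27.2% and 26.6% of all genes were higher and 30.2% and 27.3% lower. Autophagy genes were higher for 6 and 7 and lower for 8 and 6 of 20, Vcp cofactors higher for 7 and 9 and lower for 4 and 2 of 18. Antioxidant enzymes were higher for 7 and 7 and lower for 3 and 1 of 11, and paraspeckle proteins higher for 9 and 8 and lower for 1 and 3 of 11. Profilins and actin regulators were higher for 2 of 12 and 4 of 14 and lower for 4 and 3, and cristae proteins higher for 4 of 13 and 4 of 12 and lower for 1 and 0. Tbk1 adaptors were higher for 1 of 7 and 0 of 5 and lower for 2 and 2, and other ALS and FTD genes higher for 12 of 28 and 13 of 30 and lower for 7 and 5. The ratio differed between the cell types for 3 of the 30 ALS and FTD genes, 3 Vcp cofactors, 2 autophagy genes, 2 antioxidant enzymes and 1 gene each of the actin, cristae and paraspeckle lists, and for 0 Tbk1 adaptors, beside 8.07% of all genes.

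For each of the 9, the genes whose levels followed it most closely over the 12 group means of log2 RPKM were found among 10650 genes. The 12 means are of 2 cell types, and footprint and total mRNA means come from the same cultures, so the points are not independent, and no correlation was taken within a cell type. For Pfn1 they were Snrpb (Pearson's r = 0.998) and Rpl14 (0.997), for Chchd10 Cops6 (0.996) and Atp5g2 (0.995), and for Sod1 Uqcrq (0.995) and Sf3a2 (0.995). Tbk1 was followed by Hmgn2 (0.991) and Rad21 (0.990), Optn by B3galt2 (0.989) and Dchs2 (0.987), Sqstm1 by Puf60 (0.985) and Sdhd (0.984) and Ubqln2 by Itm2b (0.984) and Ptn (0.982). Matr3 was followed by Sept7 (0.980) and Rb1cc1 (0.979), and Vcp by Ubqln1 (0.968) and Ndufv1 (0.960), the lowest of these values.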

How the data were processed

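The 28 libraries hold the footprints and the poly(A)-selected mRNA of 14 mouse cultures, and every library was used. The authors deposited raw counts of reads per gene, 1 table per library. Per the file headers and the labels, adapters were clipped with cutadapt 1.8.1, reads matching non-coding RNA were removed with Bowtie2, the rest were aligned to GRCm38 with TopHat2, and uniquely mapped reads on exons were counted by featureCounts 1.4.4 without regard to strand, so multi-copy genes lose reads. Groups and replicate numbers came from the labels, and symbols and transcripts from GENCODE M21 (GRCm38).

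Differences were tested with edgeR 4.0.16 in R 4.3.3 (filterByExpr with a minimum count of 10 and minimum total of 15, TMM, quasi-likelihood test, Benjamini-Hochberg over all genes tested, threshold 0.05). Genotypes were compared within a cell type and library type, using the libraries of both groups only. Cell types, library types and interactions were fitted over all groups with 1 mean per group. SE is the absolute log2 fold change over the square root of F, and was not given where p was above 0.9. The study used DESeq, and DESeq2 1.42.0 was an alternative, together with DESeq2 size factors, no filter on low counts, control groups only and leaving out each replicate. Where that left 1 library in an arm, it was assumed to vary like the other arm. Depth was 166064 to 6969578 reads per library, and 3 counts correspond to 0.43 to 18.07 CPM.

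Within a cell type, libraries of 1 replicate number share a date in their titles, except that the GFP footprint title of MN1 replicate 1 gives another year with the same day and month. It was kept in replicate 1, as its description states, and fits with the number as a block were made. For the footprint to mRNA ratio the block was the culture instead. The main fits of that ratio did not pair the footprint and mRNA libraries of a culture. Deviations of same-numbered libraries correlated on average at 0.34 (footprints) and 0.44 (total mRNA) in MN1 cells and at 0.12 and 0.17 in neurons. Beyond the dates the labels do not say that replicates were independent, and p-values measure the spread between these cultures. The tests were tried on simulated counts. Of 2-fold changes set there, 58.2% were called for A315T against GFP in MN1 total mRNA. For A315T against WT in neuron footprints 39.4% were called, so genotype contrasts can miss changes of that size. Many genes were changed at once there, which eases the adjusted threshold, and no effect of the replicate number was set. The shares can therefore be higher than for a single changed gene among these cultures.

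The 9 genes and all lists were chosen with earlier results of these data known. Named besides the 9 were their close paralogs, at most the 2 genes that rose and the 2 that fell the most in each list in total mRNA of neurons against MN1 cells, and for each of the 9 genes the 2 with the highest correlation.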

Additional observations from a re-analysis of the deposited data

Results flagged for a closer look

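The footprint to total mRNA ratio of Tbk1 differed between cortical neurons and MN1 cells by 0.85 on the log2 scale (SE 0.18, adjusted p = 0.0050, edgeR interaction of library type and cell type over 28 libraries). It was singled out because the difference between the cell types was itself past the threshold. Its ratio was higher in 7 of 8 neuron cultures than in every MN1 culture, and the cell types also differed in cycloheximide treatment, from which cell type cannot be told apart. Genotype groups held 2 or 3 cultures, too few to look for single outlying samples.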

How the results depend on the processing

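For 59 single-gene values, those between cell types or library types and those described between genotypes, 468 recomputed values kept direction and side of the threshold, 10 came to pass it, 11 ceased to and 20 changed sign. Over all tests of the 9 genes, 106 of 178 values between genotypes, interactions included, changed sign under at least 1 alternative, as did 7 of 45 between cell types or library types. The number of the 9 genes called moved from 8 to 5 in total mRNA of neurons against MN1 cells with control groups only. For the ratio between cell types it moved from 1 to 2 with the culture as a block and to 0 with control groups only. It ran from 0 to 2 when replicates were left out. In genotype contrasts it moved from 0 to 1 in MN1 cells with the block and ran from 0 to 1 without single replicates in both cell types. The block changed no other count of calls among the 9 by over 1.5 times. None of the 20 was past the threshold after its sign had changed. Leaving out replicates gave -0.67 to 0.68 for Matr3 (MN1 total mRNA, hTDP-43 against GFP), -0.38 to 1.06 for Sod1 (neuron total mRNA, A315T against WT), -0.86 to 0.0363 for Chchd10 (neuron footprints, A315T against WT), -1.63 to 0.11 for its footprint to mRNA ratio in that contrast and -0.0649 to 0.37 for Vcp footprints between cell types (-0.0063 with control groups only). Optn in MN1 footprints against total mRNA was -0.0505 with no filter. For the ratio between cell types, leaving out replicates gave -0.30 to 0.34 for Sod1, -0.11 to 0.40 for Pfn1 and -0.0106 to 0.86 for Chchd10. With DESeq2 size factors, DESeq2 and control groups only, Ubqln2 was -0.0442, -0.0380 and -0.18 and Pfn1 -0.0936, -0.10 and -0.0097. Optn was -0.0366 with control groups only, and Pfn1 -0.0692 without the WT and hTDP-43 replicate 3 neurons. The cause of these changes was not tested. Leaving out an MN1 replicate could not be run for the footprint to mRNA ratio within MN1 cells, for want of residual degrees of freedom. Among recomputed levels per length, 54 stayed within 1 SD and 54 did not. The neurons without both replicate 3 cultures, and levels per principal transcript, were alternatives chosen after seeing the data. Scarce genes rest on few reads, such as 4 to 122 Tbk1 footprints per neuron library, which limits their precision.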
